A study of Arabidopsis thaliana with 9 samples.

Results

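Yeast carrying prey inserts from an Arabidopsis cDNA library was sampled at recovery times of 0, 2 and 4 h with each of 3 baits, and the 3 libraries at 0 h were compared with the 6 at 2 or 4 h, out of 9 in all. The members were taken from the recovery time in the labels, and each bait gave 1 library at each time. The baits were PKS5 and SOS2, kinases of the CIPK family, which calcium sensors of the CBL type switch on, and SCAB1, which bundles the actin filaments of plant cells. All 9 libraries shared the selection on medium lacking tryptophan, leucine and histidine and holding 1 mM 3-AT, and each came from more than 3000 colonies. The labels do not say what the yeast recovered from or in which medium. No library without selection is labelled, and nothing says that the 3 libraries of a bait are separate cultures, so p-values measure only the spread between these libraries.

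In a two-hybrid screen the bait is fused to one part of a transcription factor and each prey to the other, and yeast in which bait and prey meet makes the enzyme that 3-AT inhibits and grows without histidine. The inserts of a sequenced pool of such yeast share a fixed number of reads, of which a few leading preys take most and a long tail of inserts the rest. A level here is therefore a share of the library, in CPM (reads of a gene as a share of the library's reads, scaled to the same total in each). A larger share of the leading preys and fewer plasmids of the tail cannot be told apart, and reads, which are PCR copies, do not measure binding strength.

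A library held 1640114 to 3288437 reads, and the upper limit for a gene without a read, 3 reads, was 0.912 to 1.83 CPM, which covers counting error only. The later PKS5 libraries differed from each other: that at 4 h was as broad as that at 0 h. That at 2 h had the fewest genes at 20 CPM or more of all 9 libraries, 598. It also had the most reads per distinct read, 137. With 1 library per bait and time, which of them departs from its time cannot be told. Results that rest on the 4 h library are given with and without it. The breadth measures and the fits with library size were not run without the 2 h library. The libraries at 0 h also held the most distinct reads with each bait, 31294, 37151 and 47817 with PKS5, SCAB1 and SOS2, against 22024 and 27034, 22616, and 42533 and 37497 later. The SCAB1 column of distinct reads at 4 h is a copy of that at 2 h and was not used. The column headers call these unique reads and do not define the term, which was taken here to mean distinct reads. The part of their number in the results was not tested.

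By genes at 20 CPM or more, the pool was broader at 0 h than at both later times with SCAB1 and SOS2, and with PKS5 only against 2 h. They numbered 1309, 598 and 1410 at 0, 2 and 4 h with PKS5, 1565, 841 and 917 with SCAB1 and 2417, 1527 and 1245 with SOS2. The 0 h library thus held the most with SCAB1 and SOS2, while with PKS5 it lay between the later ones. After reduction to the smallest library total, the expected number of genes with at least 1 read was 7041, 5134 and 6639 with PKS5, 7087, 5374 and 5450.0 with SCAB1 and 8261, 7255 and 5968 with SOS2. On this measure the 0 h library was the highest with each of the 3 baits, at 7463 ± 691 (SD, n = 3) at 0 h and 5970.1 ± 828 (SD, n = 6) later (p = 0.037, adjusted over the 5 measures p = 0.123, exact two-sided permutation of the 0 h label within bait). The smallest p that the 27 arrangements allow is 0.037, so no measure could pass after adjustment unless at least 4 did. Without the PKS5 library at 4 h the difference was 1744 genes in place of 1493 (p = 0.0556, the smallest that the 18 arrangements allow, exact permutation). In distinct reads the difference was 349 genes (p = 0.0556, exact permutation), without the SCAB1 library at 4 h.

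**Figure D1:**
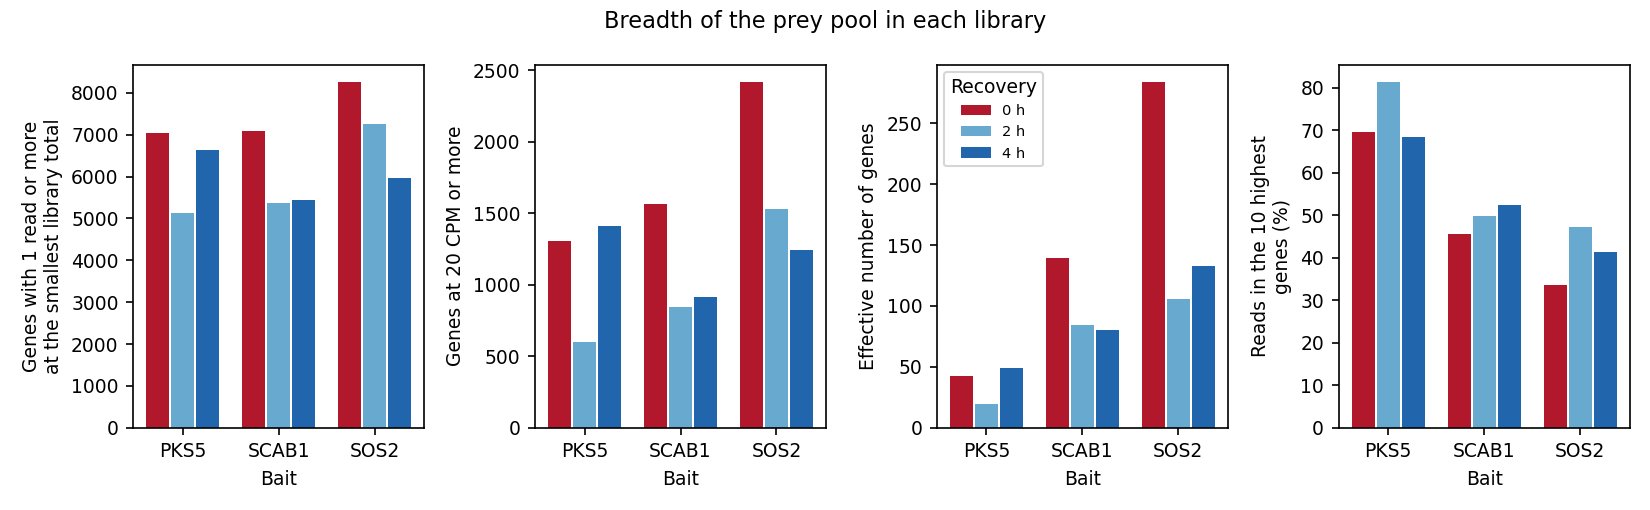
Breadth of the prey pool in each of the 9 libraries, by bait and recovery time: genes with at least 1 read at the smallest library total, genes at 20 CPM or more, effective number of genes, and percent of reads in the 10 highest genes, 1 bar per library. The 0 h bar is the tallest of its bait in the first panel with all 3 baits, and the PKS5 bar at 4 h stands at 48.9 effective genes against 42.8 at 0 h.

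The effective number of genes, the number of equally read genes that would give the same Shannon entropy, was 42.8, 19.6 and 48.9 at 0, 2 and 4 h with PKS5. It was 139, 84.6 and 79.9 with SCAB1 and 284, 106 and 133 with SOS2, highest at 0 h with 2 of the 3 baits (p = 0.0741, adjusted over the 5 measures p = 0.123, exact permutation). The 10 highest genes took 69.7, 81.4 and 68.5% of the reads with PKS5, 45.5, 49.9 and 52.5% with SCAB1 and 33.7, 47.3 and 41.4% with SOS2, lowest at 0 h with 2 baits (p = 0.148, adjusted over the 5 measures p = 0.148, exact permutation). Genes with at least 10 reads and the inverse Simpson number gave an adjusted p of 0.123 and 0.139 by the same exact permutation test. None of the 5 measures passed after adjustment. Counted in distinct reads, the expected number of genes with at least 10 turned the other way: it was 439.9, 449 and 440.1 at 0, 2 and 4 h with PKS5, 455 and 460.1 at 0 and 2 h with SCAB1, and 436, 479.6 and 491 with SOS2, lowest at 0 h with each bait. The difference was -19.8 genes (p = 0.0556, exact permutation, without the SCAB1 library at 4 h).

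No prey that was well read at 0 h disappeared later. Of the genes at 20 CPM or more at 0 h, none had fewer than 3 reads in both later libraries of its bait, and none at 20 CPM or more in both later libraries had fewer than 3 reads at 0 h. The count of preys lost and the count gained were thus 0 with each bait. Kept preys, at 20 CPM or more in all 3 libraries of a bait, numbered 598 of 1309 at 0 h with PKS5 (45.7%), 799 of 1565 with SCAB1 (51.1%) and 1181 of 2417 with SOS2 (48.9%). Genes that passed below 20 CPM in both later libraries numbered 142, 618 and 845, while the reverse held for 0, 1 and 0 genes. With a 10-fold lower level in both later libraries in place of fewer than 3 reads, 0, 0 and 2 genes were lost. The 2 were AT1G69030, at 22.8, 2.05 and 2.13 CPM with SOS2, and AT2G45260, at 20.5, 1.02 and 1.82 CPM, both near the threshold at 0 h and chosen after their values were seen.

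Most of each later pool was already there at 0 h. Of the genes at 20 CPM or more at 2 h, 598 of 598 with PKS5, 832 of 841 with SCAB1 and 1514 of 1527 with SOS2 were also there at 0 h. At 4 h these were 1167 of 1410, 914 of 917 and 1239 of 1245. In the other direction, 45.7%, 53.2% and 62.6% of the genes at 0 h were there at 2 h. At 4 h the shares of the 0 h genes were 89.2% with PKS5, 58.4% with SCAB1 and 51.3% with SOS2. The kept genes held 94.9% of the reads at 0 h with PKS5, 94.5% with SCAB1 and 92.1% with SOS2, against 94.6% to 98.4% in the later libraries.

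Whether a prey was kept followed its level at 0 h. Over the 3 baits together, where a gene counts once for each bait, 308 of 308 preys at 1000 CPM or more at 0 h were kept. Of those at 100 to 1000 CPM, 1405 of 1428 (98.4%) were kept, and of those at 20 to 100 CPM, 865 of 3555 (24.3%). A prey just above the limit of 20 CPM needs only a small difference to pass below it, so these shares describe the threshold as well as the preys. Without a threshold on presence, genes with a mean of at least 10000 CPM over the libraries of a bait had a median log2 difference (0 h minus the mean of 2 and 4 h, 0.5 CPM added) of -0.11 with PKS5, -0.18 with SCAB1 and -0.43 with SOS2. Those with a mean of 20 to 100 CPM had 0.63, 1.46 and 1.32. The 0 h library was above both later ones for 659 of 736 genes of this range with SCAB1, 918 of 1042 with SOS2 and 307 of 823 with PKS5. With PKS5 the median in this range was 1.40 against 2 h and -0.16 against 4 h.

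**Figure D2:**
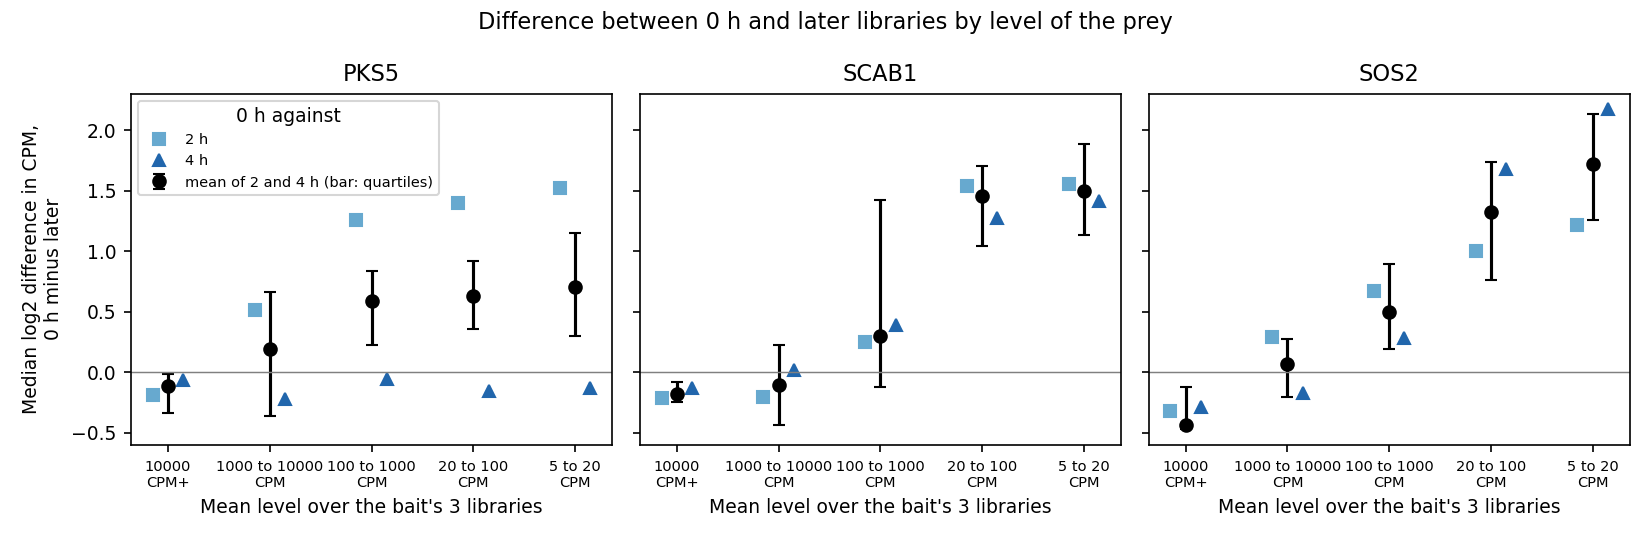
Median log2 difference in CPM, 0 h minus later, by the mean level of the prey over the 3 libraries of its bait, 1 panel per bait. Black points are 0 h against the mean of 2 and 4 h with quartiles over genes as bars, squares are against 2 h and triangles against 4 h; with PKS5 the triangles lie between -0.22 and -0.05.

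The leading preys of each bait were largely the same at 0 h and later. With PKS5, AT1G61170, for which no symbol is given, had 280587, 320121 and 237634 CPM at 0, 2 and 4 h. AT1G70790, a C2-domain protein of the kind that binds membrane lipids with calcium, had 118386, 135057 and 117358, and AT3G47490 had 84488, 97649 and 86305. Each was highest at 2 h, and the 0 h library lay below 2 h for all 3. With SCAB1, GAPC2, a cytosolic glyceraldehyde-3-phosphate dehydrogenase of glycolysis, had 80914, 78147 and 73927 CPM, highest at 0 h. AT4G26860 had 56586, 67128 and 61368 and ARA12, a subtilisin-like protease of the cell wall, 53310.2, 60465 and 59974, both lowest at 0 h.

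With SOS2, MEE14 had 182889.9, 293150.5 and 218300.1 CPM, lowest at 0 h. GAPC2 had 47849, 46360.0 and 58218 and GAPC1, its close copy, 22882, 22401 and 27146, so that 0 h lay between 2 and 4 h for both. GAPC1 and GAPC2 are near-identical and the sources used here do not give how reads were divided between such genes. Of the 50 highest genes, libraries of 1 bait shared 43 to 44 between 0 h and a later time and 43 to 47 between 2 and 4 h. Among leading genes chosen after their values were seen, TAA1, an aminotransferase of auxin synthesis, had 36743, 37793 and 77009 CPM with SCAB1, with the 4 h library alone apart. AKINBETA1, a beta subunit of the energy-sensing kinase SnRK1, had 14434, 23288 and 16310.5 CPM with SOS2, lowest at 0 h.

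**Figure D3:**
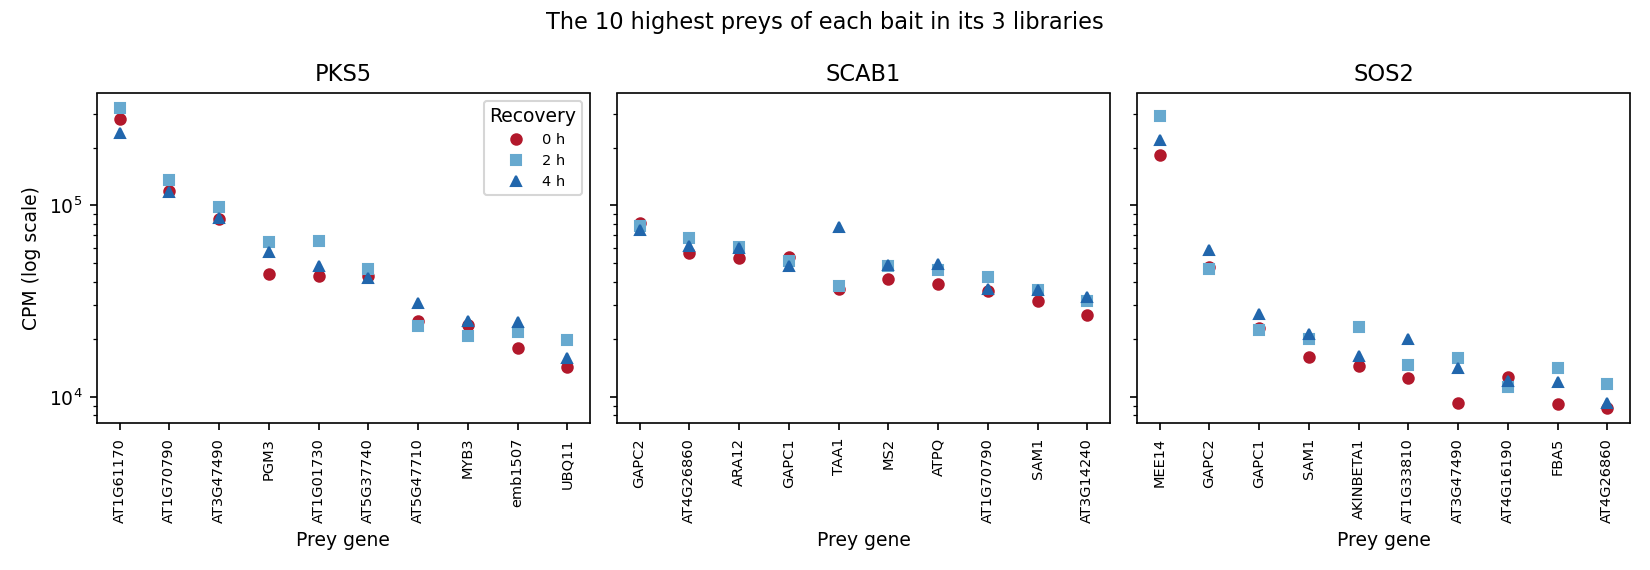
CPM (log axis) of the 10 highest preys of each bait in its 3 libraries, 1 panel per bait, 1 point per library. The points of a gene lie close together next to the range between genes, as for GAPC2 with SCAB1 at 80914, 78147 and 73927 CPM, while TAA1 with SCAB1 has 1 point apart.

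The test across genes depended on how libraries were scaled. It ran on 3811 of the 10224 genes, those with about 10 reads in at least 3 libraries. Of these, 67 reached this level, 4.74 CPM, at 0 h alone. A larger number, 2846, reached it at 0 h with all 3 baits, which by itself meets the filter. Counts over tested genes, such as those called or highest at 0 h, are therefore not free of the choice of genes. With TMM factors, which set the bulk of genes equal between libraries, 0 of 3811 genes (0%) were called at an adjusted p under 0.05 by limma-voom, for 0 h against later with bait as a block. At an unadjusted p under 0.05, 79 genes were higher and 409 lower at 0 h, and limma-trend on the same values called 0 genes. With library size alone, so that CPM are compared as shares of the library, 1172 genes (30.8%) passed by limma-voom and each was higher at 0 h. The median log2 difference over all tested genes was 1.20 on this scale and -0.07 with TMM. The TMM factors ranged from 0.440 to 2.38, and the tail that most genes belong to is what they set equal. Differences on the scale of library size are therefore read below against the shift of 1.20 shared by the bulk of genes.

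The PKS5 library at 4 h bore on these counts. Against 2 h alone and with library size, 2605 of 3811 genes (68.4%) passed by limma-voom, and against 4 h alone 9 (0.236%). Without the PKS5 library at 4 h, 2679 of 3597 tested genes passed with library size against later, 2677 of them higher at 0 h (74.4% of those tested). With TMM, limma-voom made calls under 5 alternatives, each of them lower at 0 h. There were 43 without the PKS5 library at 4 h, 12 without PKS5 at 0 h, 4 without SOS2 at 4 h, 2 without SCAB1 at 2 h, and 27 of 1233 among genes with at least 100 reads. In plain order of the CPM, 1267 of the 3811 genes (33.2%) had the 0 h library above both later libraries with each of the 3 baits, and 3 (0.0787%) had it below both with each bait. Without the PKS5 library at 4 h, 2802 (73.5%) had the 0 h library highest.

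Genes with the smallest p in the TMM fit were chosen after their values were seen, and none passed. The smallest p belonged to AT1G13635 and AT4G00590, which had 0 CPM with SCAB1 and at most 0.957 CPM with PKS5. With SOS2 they had 68.8, 147 and 129 CPM and 5.01, 22.0 and 16.1 CPM, lowest at 0 h (adjusted p = 0.0726 for each by limma-voom with TMM). RSR4 and FBA5, with a larger p, had reads with all 3 baits. RSR4, an enzyme of vitamin B6 synthesis, had 7169, 11225 and 8919.7 CPM with SOS2 and 1405, 1726 and 1723 with SCAB1, lowest at 0 h with both (log2 difference -1.69 with SE 0.35 and adjusted p = 0.0726 by limma-voom with TMM). FBA5, a fructose-bisphosphate aldolase, had 1915, 2228 and 3254 CPM with PKS5, 13945, 15877 and 17689 with SCAB1 and 9193, 14126 and 11931 with SOS2, lowest at 0 h with each bait (log2 difference -1.65 with SE 0.39 and adjusted p = 0.0876 by limma-voom with TMM). On the CPM scale RSR4 and FBA5 had log2 differences of -0.43 and -0.40, and in distinct reads with TMM -0.63 and -0.44. At the other end VAM3 had the smallest p, with at most 8.65 CPM in any library. UBC11, a ubiquitin-conjugating enzyme, had 23.2, 0.991 and 7.18 CPM with PKS5, 22.98, 3.93 and 3.66 with SCAB1 and 25.5, 9.22 and 2.43 with SOS2. It was highest at 0 h with each bait (log2 difference 2.70 with SE 0.63 and adjusted p = 0.0114 by limma-voom with library size). With TMM its log2 difference was 1.33 with SE 0.41 (adjusted p = 0.159 by limma-voom). Counted in distinct reads, with TMM, the log2 difference of UBC11 was 0.14 (adjusted p = 0.918 by limma-voom). IAA2, a repressor of auxin responses, had 14.7, 0.661 and 4.79 CPM with PKS5, 10.5, 0.437 and 0.610 with SCAB1 and 24.1, 9.73 and 3.04 with SOS2, also highest at 0 h with each, and a log2 difference of 1.43 with TMM and 0.67 in distinct reads. VAM3, UBC11 and IAA2 did not reach the 4.74 CPM of the filter in 3 later libraries. Each was thus tested only because of its 0 h levels, and being highest at 0 h is not independent of that choice.

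Protein classes were formed from gene symbols and their synonyms, and 1728 of the 10224 genes fell in 1 of 27 classes or more. Genes in a class held 17.8 to 45.5% of the reads of a library. No symbol was given for 5526 genes, which held 70.2 to 77.0% of the reads with PKS5, 34.4 to 36.6% with SCAB1 and 28.9 to 33.1% with SOS2. A class can therefore lack members, leading preys among them, and its share of reads covers named members only. Over all genes and baits, 2578 of 5291 preys at 20 CPM or more at 0 h were kept (48.7%). Among preys at 20 to 100 CPM at 0 h the share was 24.3%, and the median log2 difference with library size was 1.20 over all tested genes. The standing of a class depended on the limit: with 100 CPM in place of 20 CPM, 1028 of 1736 preys were kept over all genes (59.2%), and 15 of the 26 classes with preys at both limits then lay on the other side of the share of all genes. These are descriptions without a test. Close copies within several classes (GAPC, SAM, polyubiquitin, actin, tubulin and calmodulin genes) may share reads.

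Enzymes of methionine and S-adenosylmethionine synthesis, which supply the methyl donor of the cell, had the highest kept share among classes with at least 10 preys at 0 h, 22 of 27 (81.5%). Their median log2 difference was 0.25 with library size and -0.93 with TMM, and 0 of 9 tested genes were called with library size (30.8% over all) and 3 of 9 were called higher without the PKS5 library at 4 h (74.4% over all). The median level of its tested genes was 1014 CPM, against 15.1 over all tested genes, and the part of level in these counts was not tested. SAM1, an S-adenosylmethionine synthetase, had 31743, 35983 and 35957 CPM with SCAB1 and 16138, 20149 and 21164 with SOS2, lowest at 0 h with both. With PKS5 it had 239, 125 and 419, where 0 h lay between the later libraries. MS2, a methionine synthase, had 41255, 48481 and 49066 CPM with SCAB1. At 20 to 100 CPM, 5 of 10 (50%) were kept, and with the limit at 100 CPM 14 of 17 (82.4%).

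Glycolytic enzymes were kept in 20 of 27 (74.1%), with a median of 0.46 with library size and -0.61 with TMM. Their share of reads was 4.68%, 6.69% and 6.21% at 0, 2 and 4 h with PKS5, 14.99%, 14.7% and 14.1% with SCAB1 and 8.57%, 8.66% and 10.4% with SOS2. PGM3, a cytosolic phosphoglucomutase counted in this class and a prey of PKS5, had 43588, 63996 and 57342 CPM with that bait, lowest at 0 h. This 1 gene made up most of the class's share of reads with PKS5, so that share does not describe the other members. All 19 of their preys at 100 CPM or more at 0 h were kept, and 1 of 8 of those at 20 to 100 CPM. A limit of 100 CPM kept 16 of 19 (84.2%).

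Polyubiquitin and SUMO genes were kept in 13 of 17 (76.5%), in 1 of 5 at 20 to 100 CPM and, with the limit at 100 CPM, in 8 of 12 (66.7%). Their median with library size was 1.20, the same to 2 decimals as that of all tested genes. Proteases were kept in 33 of 46 (71.7%). UBQ10 had 15705, 17718 and 19441 CPM with SCAB1, lowest at 0 h, and UBQ11 had 14399, 19742 and 16024 with PKS5, also lowest at 0 h, but 657, 168 and 240.2 with SCAB1, highest at 0 h, and 719, 465 and 939 with SOS2, where 0 h lay between the later libraries. Among proteases ASPG1, an aspartic protease, had 4928, 7695 and 9515 CPM with SCAB1, lowest at 0 h. RD19, a cysteine protease of drought-treated leaves, had 3906, 3104 and 5202 with SOS2, where 0 h lay between the later libraries. Proteases had a median of 0.70 with library size and were kept in 10 of 23 (43.5%) at 20 to 100 CPM and, with the limit at 100 CPM, in 18 of 23 (78.3%). Redox enzymes were kept in 50 of 76 (65.8%) and in 15 of 39 (38.5%) of the lower range, with a median of 1.24. Their share with the limit at 100 CPM, 20 of 37 (54.1%), lay below that of all genes. Their highest member CAT3, a catalase that removes hydrogen peroxide, had 1764, 841 and 1832 CPM with PKS5, 2081, 1222 and 1455 with SCAB1 and 8047, 5899 and 10081 with SOS2. It was highest at 0 h with SCAB1 alone.

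Lipid-transfer and cell-wall proteins were kept in 96 of 147 (65.3%), and 25 of 76 (32.9%) of their preys at 20 to 100 CPM, with a median of 1.14. With the limit at 100 CPM their share, 38 of 71 (53.5%), lay below the 59.2% of all genes. LTP2, a lipid-transfer protein of the epidermis, had 6632, 8899.6 and 10665 CPM with PKS5, lowest at 0 h, and 138, 38.5 and 57.9 with SCAB1, highest at 0 h. Proteins of succinate dehydrogenase, cytochrome c and the mitochondrial ATP synthase were kept in 14 of 25 (56%), in 2 of 13 at 20 to 100 CPM and in 8 of 12 (66.7%) with the limit at 100 CPM, with a median of 0.86. ATPQ, an ATP synthase subunit, held most of the class with SCAB1, at 38766, 46121 and 49681 CPM, lowest at 0 h. With PKS5 the same gene had 27.01, 10.2 and 29.7 CPM and with SOS2 49.2, 16.4 and 27.4, lowest at 2 h with both.

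**Figure D4:**
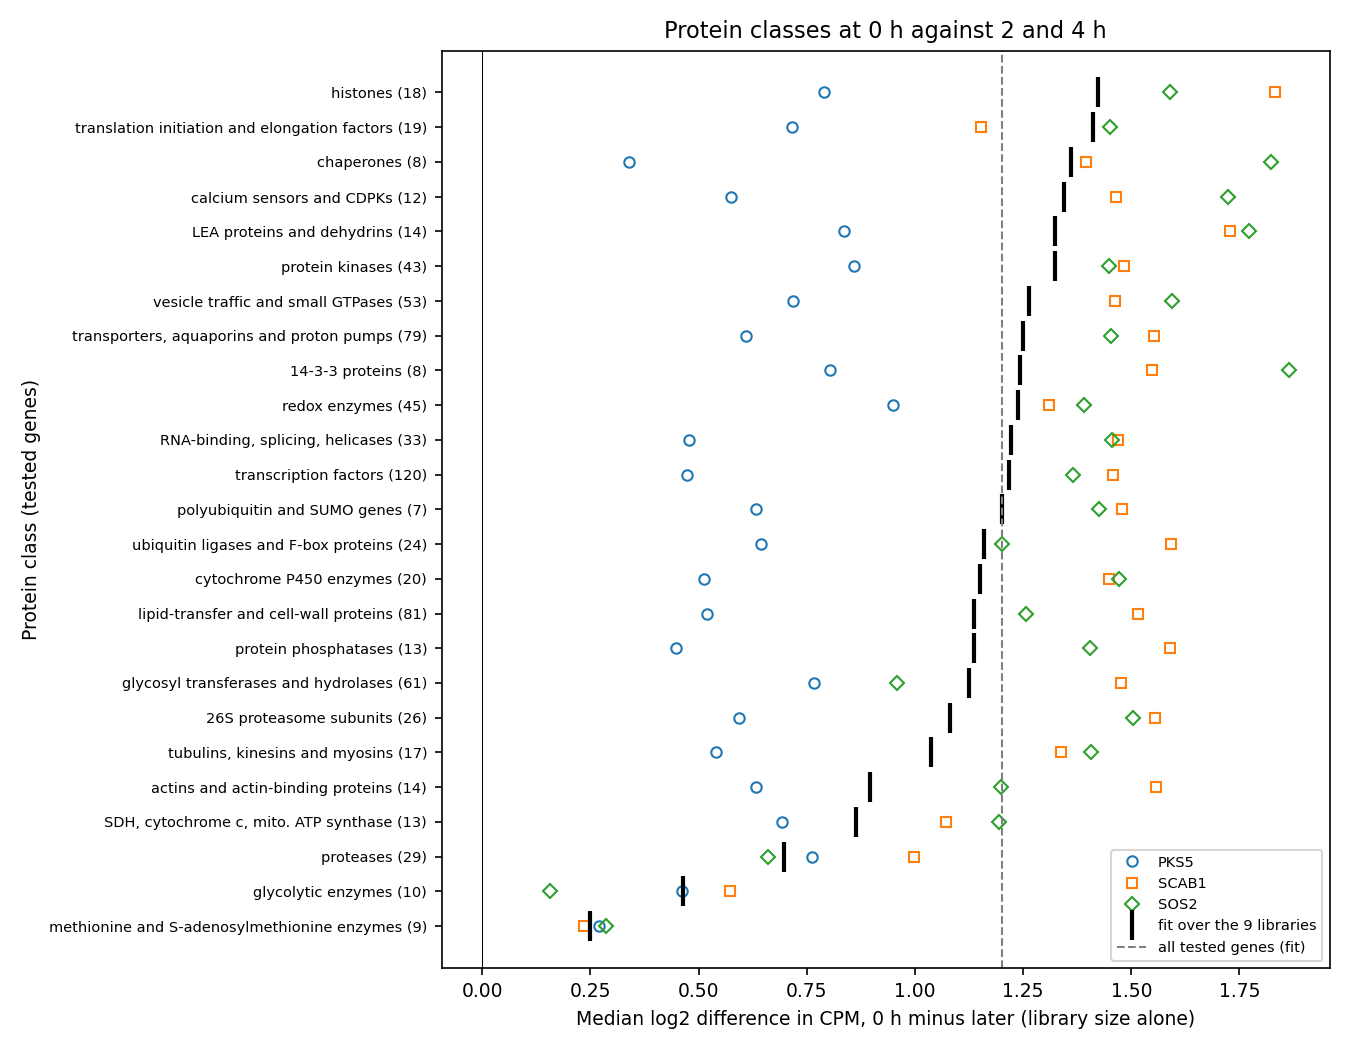
Median log2 difference in CPM, 0 h minus the mean of 2 and 4 h, for the 25 classes with at least 7 tested genes, with the number of tested genes in brackets. Open symbols are the 3 baits, the black bar is the fit over 9 libraries with library size alone, and the dashed line is the median of all tested genes at 1.20; methionine enzymes lie lowest at 0.25 and histones highest at 1.42.

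Other classes were read mainly in the tail at 0 h and had lower kept shares. Of 14-3-3 proteins, which bind phosphorylated partners, 2 of 13 (15.4%) were kept, and of chaperones 3 of 15 (20%). Their medians, 1.24 and 1.36, were close to the 1.20 of all tested genes, and at 20 to 100 CPM 1 of 11 and 2 of 14 were kept. With the limit at 100 CPM they had 2 preys and 1 prey, of which 1 each was kept. GRF6, the 14-3-3 gene with the most reads, had 71.5, 25.4 and 77.5 CPM with PKS5, 74.4, 19.2 and 20.1 with SCAB1 and 199, 112 and 105 with SOS2. It was highest at 0 h with SCAB1 and SOS2 and not with PKS5. The chaperone HSP81-2, an HSP90, had 98.9, 28.9 and 35.97 CPM with SCAB1 and 94.3, 28.2 and 22.8 with SOS2, highest at 0 h. An exception in the same class was J3, a DnaJ cochaperone, at 619.7, 600.4 and 1456 CPM with PKS5, highest at 4 h.

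Histones were kept in 8 of 33 (24.2%), in 3 of 28 (10.7%) of the lower range, and had the highest median of the 25 classes with at least 7 tested genes, 1.42 with library size and 0.14 with TMM. A limit of 100 CPM kept 1 of 5. With library size 10 of 18 tested histone genes were called higher at 0 h by limma-voom, against 30.8% of all genes, and 17 of 18 without the PKS5 library at 4 h, against 74.4%. HTB9, an H2B histone, had 76.8, 24.1 and 58.4 CPM with PKS5, 108, 55.96 and 41.5 with SCAB1 and 127, 71.7 and 21.6 with SOS2, highest at 0 h with each (log2 difference 1.31 with SE 0.50 and adjusted p = 0.0409 by limma-voom with library size). The median over all tested genes was 1.20 on this scale, so the p-value does not set HTB9 apart from the shift shared by most genes. GAMMA-H2AX, a variant of H2A that marks DNA breaks, had 233, 209 and 196 CPM with SCAB1 and stayed above 100 CPM in all 3 of its libraries. Vesicle traffic proteins and small GTPases were kept in 14 of 55 (25.5%) and in 5 of 46 (10.9%) of the lower range, with a median of 1.26. With the limit at 100 CPM their share, 8 of 9 (88.9%), lay above that of all genes. ARFA1E, a small GTPase of vesicle budding, had 302, 121 and 109.7 CPM with SCAB1 and 597, 364 and 450.1 with SOS2, highest at 0 h with both.

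Proteasome subunits were kept in 12 of 37 (32.4%) and in 3 of 28 (10.7%) of the lower range, with a median of 1.08. At the limit of 100 CPM the share was 7 of 9 (77.8%), above that of all genes. RPT2b, an ATPase of the regulatory particle, had 4508, 5678 and 6519.7 CPM with PKS5, lowest at 0 h, whereas with SCAB1 it had 32.5, 24.5 and 17.7, highest at 0 h. RNA-binding, splicing and helicase proteins were kept in 17 of 51 (33.3%) and in 5 of 39 (12.8%) of the lower range, with a median of 1.22. Their share with the limit at 100 CPM, 10 of 12 (83.3%), was likewise above that of all genes. GRP7, a glycine-rich RNA-binding protein of the clock and cold response, had 1496, 488 and 1109 CPM with PKS5, 1854, 447 and 665 with SCAB1 and 2129, 1469.8 and 376 with SOS2. It was highest at 0 h with each bait (log2 difference 1.46 with SE 0.37 and adjusted p = 0.0193 by limma-voom with library size) and was kept with all 3. Beside the 1.20 of all tested genes, this p-value does not set GRP7 apart from the shared shift. The helicase emb1507 of the same class had 17953, 21915 and 24563 CPM with PKS5, lowest at 0 h.

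LEA proteins and dehydrins, which protect cells from drying and cold, were mostly higher at 0 h as shares of the library, and whether they were kept depended on the limit. With library size 11 of 14 tested genes were called higher at 0 h by limma-voom, against 30.8% of all tested genes, and 9 of 14 had the 0 h library highest with each bait, against 33.2%. Without the PKS5 library at 4 h these were 14 of 14, against 74.4%, and 13 of 14, against 73.5%. The median level of the 14 was 58.5 CPM, against 15.1 over all tested genes, and the part of level in these counts was not tested. KIN2, a cold-induced protein, had 302, 115 and 218 CPM with PKS5, 452, 119 and 151 with SCAB1 and 442, 394 and 108 with SOS2, highest at 0 h with each (log2 difference 1.27 with SE 0.44 and adjusted p = 0.0329 by limma-voom with library size). Its difference lay near the 1.20 of all tested genes, so the p-value does not set KIN2 apart from them. LEA14 had 397, 128 and 298 CPM with PKS5, 523, 135 and 188 with SCAB1 and 785, 422 and 741 with SOS2, also highest at 0 h with each. The class was kept in 23 of 37 (62.2%), in 21 of 21 preys at 100 CPM or more and in 2 of 16 at 20 to 100 CPM. A limit of 100 CPM kept 10 of 21 (47.6%), below the share of all genes. Its median with library size was 1.32, close to the 1.20 of all tested genes. With TMM it was 0.07, beside -0.07 over all tested genes, and none of its genes passed with TMM.

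**Figure D5:**
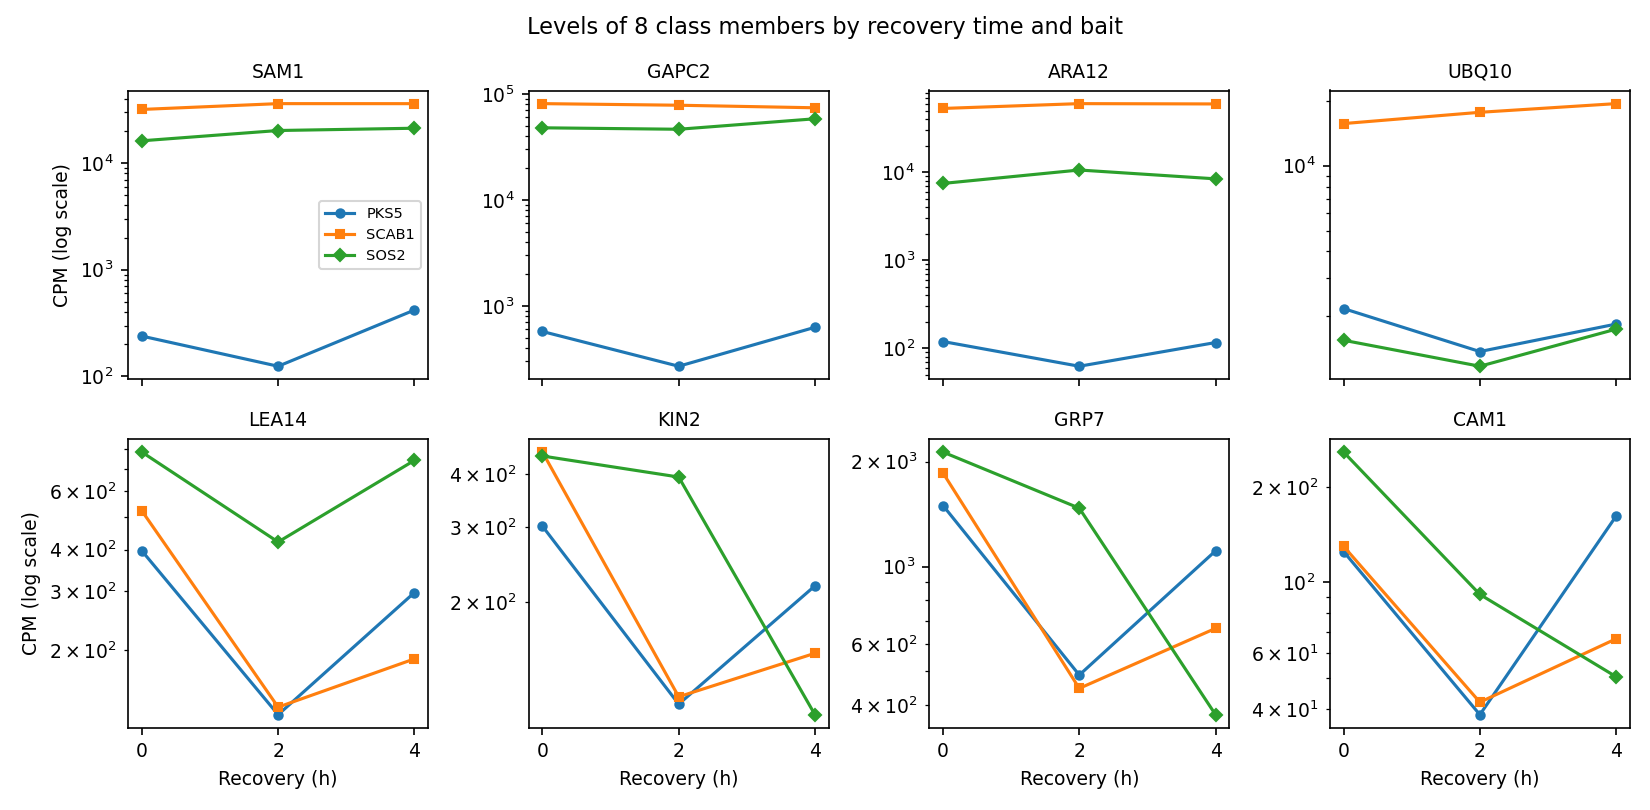
CPM (log axis) of 8 class members against recovery time in h, 1 line per bait and 1 point per library. In the upper row SAM1, GAPC2, ARA12 and UBQ10 differ little with time in the bait where each is highest, as SAM1 with SCAB1 at 31743, 35983 and 35957 CPM. With PKS5, where their levels are lower, SAM1, GAPC2 and ARA12 are higher at 0 h than at 2 h, as SAM1 at 239 and 125 CPM. In the lower row LEA14, KIN2, GRP7 and CAM1 are higher at 0 h than at 2 h with each bait, and CAM1 with PKS5 is highest at 4 h.

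Of signalling and regulatory classes, transcription factors had a kept share below the 48.7% of all genes at 20 CPM. Kinases, phosphatases and calcium sensors lay nearer to that share, on fewer preys. At 100 CPM the side of the share of all genes differed between these classes. Transcription factors were kept in 54 of 149 (36.2%), protein kinases in 17 of 40 (42.5%), phosphatases in 5 of 11 (45.5%) and calcium sensors with calcium-dependent kinases in 9 of 22 (40.9%). With the limit at 100 CPM, transcription factors, at 29 of 36 (80.6%), and phosphatases, at 2 of 2, lay above the 59.2% of all genes, and kinases, at 4 of 10, and calcium sensors, at 1 of 7, below. At 20 to 100 CPM the kept counts were 19 of 113 (16.8%), 7 of 30 (23.3%), 3 of 9 (33.3%) and 2 of 15 (13.3%) in the order first given. Over all genes this share was 24.3%, so phosphatases lay above it and kinases close to it. The medians with library size were 1.22, 1.32, 1.14 and 1.34, around the 1.20 of all tested genes. The highest transcription factor was MYB3, a repressor of phenylpropanoid genes, at 23726, 20883 and 24792 CPM with PKS5 and 12122, 14239 and 11405 with SCAB1, where 0 h lay between the later libraries in both, and 2471, 2816 and 3815 with SOS2, lowest at 0 h. IBH1, a repressor of cell elongation, had 9233, 13526 and 11522 CPM with SCAB1, lowest at 0 h. CAM1, a calmodulin, had 125, 38.3 and 162 CPM with PKS5, 129.9, 41.97 and 66.5 with SCAB1 and 257, 91.7 and 50.5 with SOS2, highest at 0 h with SCAB1 and SOS2. PP2CA, a phosphatase of abscisic acid signalling, had 111, 102 and 143 CPM with PKS5, highest at 4 h. CIPK15, a kinase of the same family as the kinase baits, had 135, 99.9 and 244 CPM with SOS2, also highest at 4 h.

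Further classes had kept shares between 36.7% and 55.3%. Actins with actin-binding proteins were kept in 17 of 31 (54.8%), tubulins with kinesins and myosins in 21 of 38 (55.3%), translation factors in 18 of 33 (54.5%) and transporters in 58 of 108 (53.7%). Ubiquitin ligases with F-box proteins were kept in 19 of 39 (48.7%), glycosyl transferases and hydrolases in 38 of 87 (43.7%), cytochrome P450 enzymes in 11 of 30 (36.7%) and genes of the mitochondrial genome in 3 of 8 (37.5%). Their medians with library size ran from 0.90 for actins to 1.41 for translation factors. With the limit at 100 CPM, the shares were 7 of 13 (53.8%), 7 of 13 (53.8%), 11 of 17 (64.7%) and 18 of 35 (51.4%) for the first 4, and 3 of 8 (37.5%), 13 of 21 (61.9%), 3 of 5 (60%) and 3 of 3 for the others. At 20 to 100 CPM, 4 of 18 actins, 8 of 25 tubulins, 24 of 73 transporters, 11 of 31 ubiquitin ligases, 18 of 66 glycosyl enzymes, 6 of 25 P450 enzymes and 0 of 5 mitochondrial genes were kept. ACT7, an actin of growing tissue, had 5261, 4029 and 6299 CPM with SOS2, lowest at 2 h, and TUB3, a beta-tubulin, had 3013, 3800.0 and 3390.1, lowest at 0 h. KT1, a potassium channel of the root, had 3423, 4447 and 3343 CPM with SCAB1, highest at 2 h. Of translation factors 1 of 16 were kept at 20 to 100 CPM and 17 of 17 above that range. The chloroplast genome had 2 genes with a read and none reached 20 CPM in a 0 h library.

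The kept preys differed between baits. Of 1514 genes kept with any bait, 396 were kept with all 3, 272 with 2 and 846 with 1. Of 2669 genes at 20 CPM or more at 0 h with any bait, 1118 were there with all 3 and 1165 with 1 alone. The part of the 20 CPM limit in these counts was not tested. Over the 3811 tested genes, Spearman's rho between PKS5 and SCAB1 was 0.72, 0.61 and 0.63 at 0, 2 and 4 h. It was 0.59, 0.51 and 0.50 between PKS5 and SOS2 and 0.51, 0.43 and 0.40 between SCAB1 and SOS2, highest at 0 h for each pair. The leading genes did not follow this for every pair. Of the 50 highest genes, PKS5 and SCAB1 shared 19, 10 and 11 at 0, 2 and 4 h. PKS5 and SOS2 shared 15, 15 and 13, and SCAB1 and SOS2 18, 17 and 19. These correlations are descriptions over genes, and the points share the library totals. Of the tested genes, 2846 reached the filter's level at 0 h with all 3 baits, so the correlations are not free of the choice of genes.

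Reads of the bait genes themselves were also present, and whether they came from prey inserts was not tested. SIP4, the gene of PKS5, had 1659, 1648 and 1933 CPM in the libraries of its own bait, 1183, 1416 and 987 with SCAB1 and 701, 426 and 926 with SOS2, and was kept with all 3 (adjusted p = 0.995 by limma-voom with library size). SCAB1 had 34.5, 80.01 and 57.9 CPM with its own bait, lowest at 0 h, and at most 2.73 CPM elsewhere. SOS2 was not tested, and had 2.73, 6.66 and 1.52 CPM with its own bait. The upper limit for a gene without a read was 1.37, 1.54 and 0.912 CPM in these libraries, so its values lie near the floor.

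Between 2 and 4 h no gene passed with TMM, as for 0 h against later. For 4 h against 2 h, 0 of 3811 genes were called by limma-voom with TMM, 132 were higher and 141 lower at an unadjusted p under 0.05, and limma-trend called 0. The smallest p belonged to PAA1, a copper transporter (log2 difference -2.97 with SE 0.68 and adjusted p = 0.457 by limma-voom), to AT1G76520 and to FBA7, an aldolase, with adjusted p = 0.522 for the last. All 3 had fewer than 20 CPM in every library. The interaction of bait with recovery called 0 of 3811 genes by limma-voom and 0 by limma-trend, so that a difference between baits in the response of single genes was not shown. Its smallest p belonged to BT4, LKP2 and AT3G22440, each with adjusted p = 0.839 by limma-voom. BT4 had 111, 182 and 140.2 CPM with SCAB1, lowest at 0 h, and 40.98, 6.15 and 5.17 with SOS2, highest at 0 h. LKP2, a light receptor with an F-box, had 14.7, 0.661 and 2.87 CPM with PKS5 and 61.02, 73.2 and 64.2 with SOS2. AT3G22440 had 2342, 4551 and 3102 CPM with SCAB1, lowest at 0 h, and 17.5, 1.32 and 8.61 with PKS5, highest at 0 h. The interaction count rested on single libraries, with 377 genes called without the SOS2 library at 2 h and 64 without that at 4 h.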

How the data were processed

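Yeast plasmids served as template for PCR of the inserts, which were fragmented, and a further PCR kept fragments that carry 29 bp of vector, per the labels' protocols. CASAVA, cutadapt 1.18, HISAT2 and TAIR10 are named in the submitters' processing notes. The sources used here do not give how reads were assigned to genes. One table deposited by the authors lists 10224 genes with a whole-number read count and a number of distinct reads per library, not normalized, per the file headers. Cells marked n.d. were read as 0.

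Genes were fitted with limma-voom (limma 3.58.1, R 4.3.3) with bait as a block, TMM factors computed from the counts (trimming 30% by M and 5% by A), an offset of 0.5 reads, robust variances and Benjamini-Hochberg adjustment over all tested genes. For 0 h against later, 4 fits used 1 common variance trend (an infinite prior), so their p-values do not rest on the spread of the single gene. These were library size alone, the same against 4 h only, library size without genes that pass 5% in a library, and genes with at least 100 reads. With library size against 2 h only and without the PKS5 library at 4 h, the prior was finite (24.8 and 79.5 degrees of freedom). Counts from these fits are therefore not fully comparable. Breadth was compared by exact permutation within bait (Python 3.11.15, scipy 1.17.1), and the code was tested on simulated data. The members, classes and genes were chosen with earlier results of these data known. Named genes were the 3 highest of each bait, up to 3 with the most reads of each class, the 3 with the smallest p in the 4 h against 2 h and interaction tests, and the bait genes; others are said to be chosen after their values were seen. The rule's set of called genes was empty. Gene names came from RefSeq (TAIR10.1), which held 10201 of the 10224 identifiers. Ribosomal, photosystem, C2-domain and unknown proteins as classes, and protein length, charge and membrane spans, were not analysed here.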

Additional observations from a re-analysis of the deposited data

How the results depend on the processing

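For 0 h against later, calls by limma-voom were 0 with TMM and also with relative log expression factors, no filter, distinct reads, limma-trend, without robust variances, with no replicate block, with recovery as 3 levels and against 2 h or 4 h alone. They were 1172 with library size alone, 934 with library size after removal of genes that pass 5% in a library (933 higher at 0 h), and 27 of 1233 genes with at least 100 reads, all lower at 0 h. Alternatives chosen after seeing the data, with library size alone, gave 2605 against 2 h, 9 against 4 h and 2679 without the PKS5 library at 4 h. Leaving out 1 library gave 0 to 43 calls with TMM, all lower at 0 h: 43 without PKS5 at 4 h, 12 without PKS5 at 0 h, 4 without SOS2 at 4 h and 2 without SCAB1 at 2 h. For 4 h against 2 h there were 3 calls with no filter and 0 to 3 on leaving out 1 library (3 without PKS5 at 2 h). For the interaction there were 2 with no filter and 0 to 377 on leaving out 1 library (377 without SOS2 at 2 h, 64 without SOS2 at 4 h), and it could not be fitted without a 0 h library. The causes were not tested.

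The difference in genes with at least 1 read, 1493 at the smallest total, was 349 with distinct reads (exact p = 0.0556), and 1662, 1402 and 1415 without PKS5, SCAB1 or SOS2, where the smallest p that 9 arrangements allow is 0.111. Without the PKS5 library at 4 h, chosen after seeing the data, it was 1744 (exact p = 0.0556, the smallest that 18 arrangements allow), and the other 4 measures kept their direction. That of genes with at least 10 reads turned from 1311 to -19.8 with distinct reads (exact p = 0.0556). That of the effective number went from 76.8 to 122.995 without the highest gene of each library (exact p = 0.037), to 519 with distinct reads (exact p = 0.111) and to 111, 86.7 and 32.8 without PKS5, SCAB1 or SOS2. Kept preys were 180, 328 and 520 with PKS5, SCAB1 and SOS2 at 100 CPM, and 977 with PKS5 at 10 CPM. Lost preys were 2, 6 and 7 at 10 CPM, and 2 with SOS2 by a 10-fold difference.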
